A study of Mus musculus with 18 samples.

Results

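The suppressors of cytokine signalling (SOCS) are a family of 8 intracellular inhibitors, encoded in the mouse by Socs1, Socs2, Socs3, Socs4, Socs5, Socs6, Socs7 and Cish. Their transcripts were followed across 9 sorted immune cell populations of mice given interferon gamma (IFNg). Members were taken as the probe sets of an Affymetrix Mouse Gene 1.0 ST array annotated with only one of these symbols, which gave 8 of 19752 genes through 12 of 24922 probe sets. Socs2 and Socs3 were each measured by 2 probe sets, Socs6 by 3 and the other 5 genes by 1. All 18 arrays came from male C57BL/6 (B6) mice aged 6 weeks, 2 h after 10000 U IFNg given under the skin. The 3 myeloid populations were dendritic cells (DC, CD11c+ MHCII+ Flt3+), granulocytes (GN, Ly6G+) and macrophages (MF, F4/80+ ICAM2+). The 6 lymphoid populations were NK cells (NK, NK1.1+ TCRB-), NK1.1+ T cells (NKT, NK1.1+ TCRB+), CD4 T cells (T4, CD4+ TCRB+), CD8 T cells (T8, CD8+ TCRB+), gamma delta T cells (Tgd, TCRgd+ TCRB-) and regulatory T cells (Treg, CD4+ TCRB+ CD25+). MF came from the peritoneal cavity and the others from the spleen, so tissue and cell type cannot be told apart for MF, and the T4 gate names no exclusion of CD25+ cells. Each population had 2 arrays. Untreated animals were not analysed here, so the values below are levels in treated mice and not responses to IFNg.

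SOCS proteins are classical feedback inhibitors. Cytokine receptors activate JAK kinases and STAT transcription factors, STATs switch on SOCS genes, and the SOCS proteins then bind receptor chains or JAKs through an SH2 domain and recruit a ubiquitin ligase through the SOCS box. SOCS1 is best known for restraining IFNg and type I interferon signalling and SOCS3 for restraining receptors that use the gp130 or G-CSF receptor chains. Both can block JAK kinases directly. CIS (encoded by Cish) and SOCS2 are induced through STAT5 by cytokines such as interleukin-2, interleukin-7, interleukin-15 and growth hormone, and CIS restrains interleukin-2, interleukin-4 and interleukin-15 signals in lymphocytes. SOCS4 and SOCS5 are linked mainly to epidermal growth factor receptor signalling, and SOCS6 and SOCS7 to insulin and other receptor kinase signals.

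Promoter sequences are shown for Socs1, Socs3 and Cish, the matched members whose levels differed between populations in the test described below. The sequences are those of RefSeq on build GRCm38.p6, 300 bases in the direction of transcription, and 4 of the 8 members were matched (Socs1, Socs3, Socs4 and Cish). For Socs1, Socs4 and Cish the annotated gene start is at base 251. The Socs3 gene, on the minus strand, is annotated to start at position 117970336 of chromosome 11. Its window, 117969317 to 117969616, lies inside the gene and does not hold that start. Capitals mark matches to TTCNNNGAA, the IFNg-activated sequence to which STAT dimers bind, or to the interferon-stimulated response element, searched as GAAA and GAAA separated by any 2 bases. Both strands were searched, TTCNNNGAA being its own reverse complement.
Socs1, chr16:10785487-10785786, minus strand: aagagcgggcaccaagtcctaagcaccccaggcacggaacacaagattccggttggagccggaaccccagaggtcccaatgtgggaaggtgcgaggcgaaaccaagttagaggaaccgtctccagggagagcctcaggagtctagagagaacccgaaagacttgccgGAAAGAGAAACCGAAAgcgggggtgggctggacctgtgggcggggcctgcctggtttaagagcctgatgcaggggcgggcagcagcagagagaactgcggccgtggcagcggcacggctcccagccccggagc
Socs3, chr11:117969317-117969616, minus strand: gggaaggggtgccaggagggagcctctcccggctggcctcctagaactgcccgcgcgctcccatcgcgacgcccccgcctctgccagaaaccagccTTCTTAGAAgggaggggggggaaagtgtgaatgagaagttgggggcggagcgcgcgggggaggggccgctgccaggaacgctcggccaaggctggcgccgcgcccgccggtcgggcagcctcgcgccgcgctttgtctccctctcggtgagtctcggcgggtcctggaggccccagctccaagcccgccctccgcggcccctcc
Cish, chr9:107296409-107296708, plus strand: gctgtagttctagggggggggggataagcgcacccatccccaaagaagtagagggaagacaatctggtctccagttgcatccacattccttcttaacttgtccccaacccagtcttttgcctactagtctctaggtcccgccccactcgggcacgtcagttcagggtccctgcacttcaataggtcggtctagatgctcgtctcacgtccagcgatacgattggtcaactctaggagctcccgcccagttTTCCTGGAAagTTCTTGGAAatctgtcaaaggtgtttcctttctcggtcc
The Socs1 window held 2 overlapping matches to the response element, GAAAGAGAAA at bases 168 to 177 and GAAACCGAAA at bases 174 to 183, and none to TTCNNNGAA. The Socs3 window held TTCTTAGAA at bases 97 to 105, downstream of the annotated gene start. The Cish window held TTCCTGGAA at bases 251 to 259 and TTCTTGGAA at bases 262 to 270, the first of them beginning at the annotated start. Neither motif was found in the Socs4 window. Of 32851 promoter windows of the same length, 8.3% held TTCNNNGAA at least once and 0.457% at least 2 times, and 3.44% held the response element at least once and 0.225% at least 2 times. A match describes the letters of the window and does not show that a factor was bound there.

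The deposited values were RMA intensities, taken to log2 here. RMA corrects background, normalizes arrays and summarises probes, and it compresses the differences of dim genes. Array medians lay between 138.5 and 151.0 intensity units, and Pearson's r over all probe sets with 1 symbol was 0.9897 to 0.9958 between arrays of a population and 0.8118 to 0.9904 between populations. Levels are given as log2 intensity for each array or as mean ± SD (n = 2 arrays). They are compared between populations within a probe set and not between probe sets. Differences are log2 differences ± SE from limma, with p-values adjusted over the 21425 probe sets with 1 gene symbol. A probe set passed with an adjusted p under 0.05 and a difference, or a range of population means, of at least 2-fold. Precision is limited by having 2 arrays a population. Nothing in the labels ties the arrays to different mice, and p-values therefore reflect array-to-array spread that could be technical. Because each array averages a sorted population, fewer cells that express a gene and less RNA per cell cannot be told apart. Granulocyte, macrophage, dendritic cell, NK cell and Treg markers had their highest sums in GN, MF, DC, NK and Treg, and T cell markers in the T cell populations. DC stood apart, since their summed intensity of 11 of 11 granulocyte markers was 6930 on array 1 and 24219 on array 2, against 81309 and 92416 in GN and 675 to 2257 in the 6 lymphoid populations. On DC arrays 1 and 2, summed monocyte markers (4 of 5 measured) were 1678 and 3510, and summed macrophage markers (8 of 8) were 3570 and 4416. Summed B cell markers (7 of 8 measured) were also at 3544 and 3445 on the DC arrays and at 2636 and 2833 on the Tgd arrays, against 650 to 1804 on all others. Of the red blood cell and platelet markers (3 of 6 measured), Pf4 averaged 12.49 on the log2 scale in MF, against 5.67 to 6.92 in the other populations, while Alas2 and Itga2b had their lowest means in MF, at 6.17 and 7.04.

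Levels of 6 of the 8 genes differed between populations. Over the 9 populations, 9 of the 12 probe sets passed (Socs1, both of Socs2, both of Socs3, Socs5, 2 of Socs6 and Cish), against 39.5% of all probe sets tested. Among the 6 lymphoid populations alone, 6 of the 12 passed (Socs1, both of Socs2, both of Socs3 and Cish), against 10.3% of all. The median range of population means was 1.82 for the 12 probe sets and 0.73 for all probe sets over the 9 populations, and 0.89 and 0.33 over the lymphoid ones. The largest range was that of Socs2 on probe set 10394674, at 4.36 or 20.6-fold, and the plot of every array by probe set shows it beside the near-flat Socs4.

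**Figure D1:**
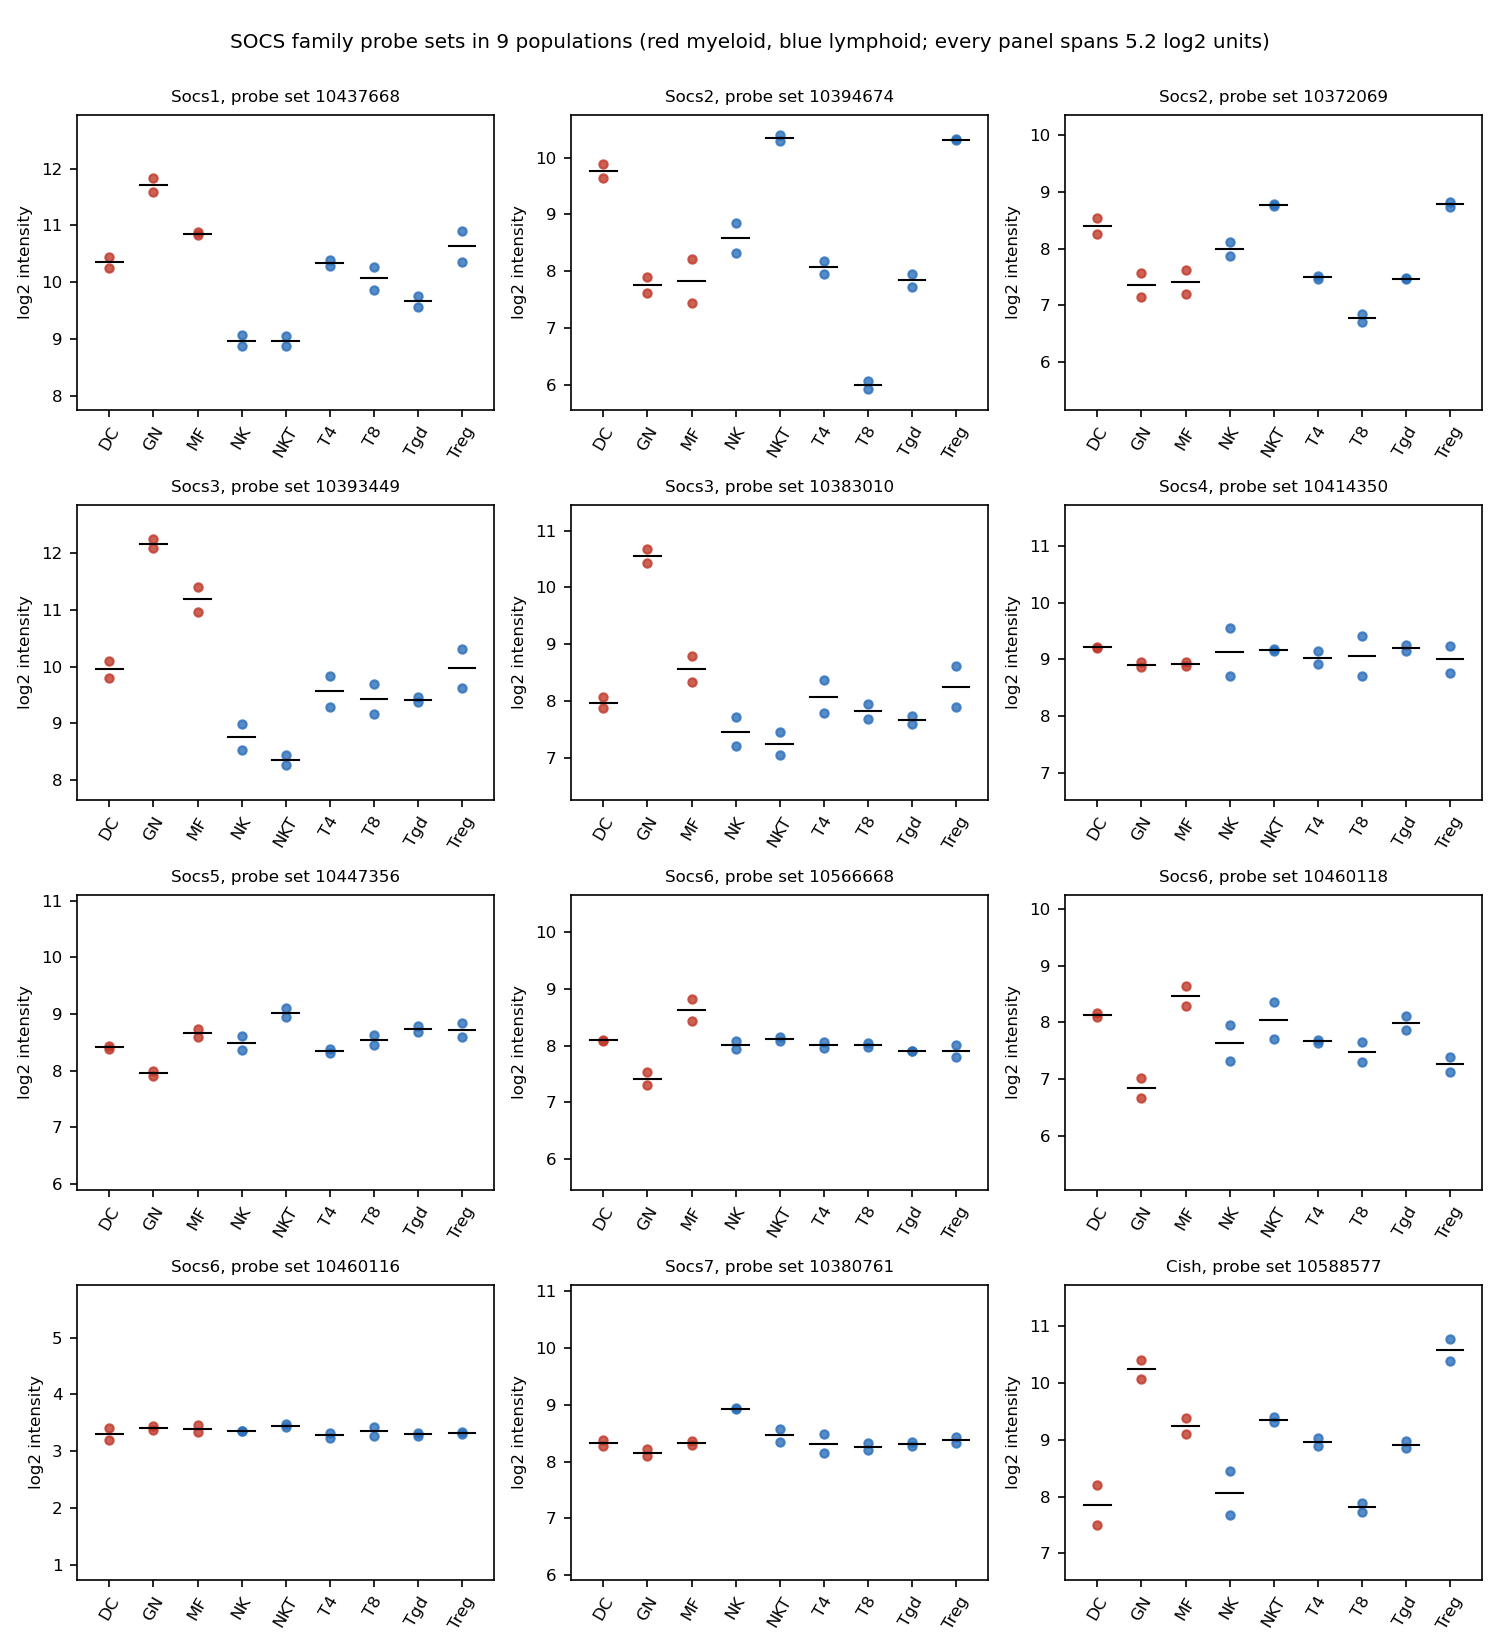
Log2 intensity (vertical axis) of each of the 12 SOCS family probe sets on every array, by population (horizontal axis), with points for the 2 arrays and a line for their mean, myeloid in red and lymphoid in blue. Every panel spans the same height, so that the range of 4.36 for Socs2 (10394674) can be set against 0.31 for Socs4, and Socs1 and Socs3 are highest in GN and lowest in NK and NKT.

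Socs1, the inhibitor best known for interferon signalling, was highest in GN and lowest in NKT and NK. On its only probe set, 10437668, it read 11.84 and 11.58 in GN, 10.83 and 10.88 in MF, and 10.24 and 10.45 in DC. The lymphoid arrays read 10.36 and 10.90 in Treg, 10.28 and 10.39 in T4, 9.86 and 10.27 in T8, 9.75 and 9.57 in Tgd, 8.87 and 9.06 in NK, and 8.87 and 9.05 in NKT. Both GN arrays lay above all other arrays, and the 4 NK and NKT arrays lay below all others. Population means ranged over 2.75, or 6.73-fold (adjusted p = 1.6e-09 over 9 populations), and over 1.67 among lymphocytes (adjusted p = 7.65e-07), where Treg was highest and NKT lowest. In the order of the levels, GN, MF, Treg, DC, T4, T8, Tgd, NK and NKT, neighbours differed at an adjusted p under 0.05 between GN and MF (0.86 ± 0.17, adjusted p = 0.000309) and between Tgd and NK (0.70 ± 0.17, adjusted p = 0.00785). The other 6 neighbouring pairs did not differ beyond that threshold, among them NK and NKT at 8.97 ± 0.14 and 8.96 ± 0.12.

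Socs3, the inhibitor of gp130 and G-CSF receptor signals, had the same order of populations as Socs1. Probe set 10393449 read 12.24 and 12.10 in GN, 10.97 and 11.41 in MF, and 9.80 and 10.11 in DC. Lymphoid arrays read 9.62 and 10.32 in Treg, 9.30 and 9.83 in T4, 9.16 and 9.70 in T8, 9.46 and 9.38 in Tgd, 8.53 and 9.0 in NK, and 8.27 and 8.45 in NKT. The GN arrays and then the MF arrays stood above all others, DC overlapped the T cells, and NKT was lowest. The means ranged over 3.81, or 14.0-fold (adjusted p = 4.5e-09), and over 1.61 among lymphocytes (adjusted p = 0.000478). GN exceeded MF by 0.98 ± 0.24 (adjusted p = 0.00204), just under 2-fold, and MF exceeded Treg by 1.22 ± 0.24 (adjusted p = 0.000507), while the other 6 neighbours missed the threshold.

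The second Socs3 probe set, 10383010, is annotated through 1 transcript record that the first does not carry. It read 10.68 and 10.43 in GN, 8.33 and 8.79 in MF and 7.87 and 8.07 in DC, and between 7.05 and 8.61 on the lymphoid arrays. On it GN stood apart from MF as well as from the rest: the GN minus MF difference was 2.00 ± 0.24 (adjusted p = 1.97e-06), and no other neighbours differed at an adjusted p under 0.05. Its range was 3.31, or 9.90-fold, over 9 populations (adjusted p = 7.35e-08). Among lymphocytes its range of 1.01 (adjusted p = 0.03) was only just past the threshold and did not pass without NKT replicate 2 (0.81), without Treg replicate 3 (0.83), with log2(intensity + 32) (0.88) or with a robust spread (adjusted p = 0.0569).

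In the comparison of the 3 myeloid with the 6 lymphoid populations, Socs1 and Socs3 passed as higher in myeloid cells and no member passed as lower. The 3 probe sets that passed as higher were those of Socs1 and Socs3, against 6.18% of all probe sets, and none of the 12 passed as lower, against 4.24% of all. Socs5 and Socs7 were lower in myeloid cells by less than 2-fold, at -0.30 ± 0.06 and -0.18 ± 0.06 (adjusted p = 0.000503 and 0.023). Socs1 averaged 10.97 over the myeloid populations and 9.77 over the lymphoid ones, a difference of 1.20 ± 0.08 (adjusted p = 1.03e-09). Socs3 averaged 11.10 and 9.25 on probe set 10393449, a difference of 1.85 ± 0.12 (adjusted p = 3.71e-10), and 9.03 and 7.75 on 10383010, a difference of 1.27 ± 0.12 (adjusted p = 7.17e-08). The 6 myeloid and 12 lymphoid arrays nevertheless overlapped for both genes. They read 10.24 to 11.84 and 8.87 to 10.90 for Socs1, and 9.80 to 12.24 and 8.27 to 10.32 for Socs3 on 10393449. For Socs1 the shared range held the DC, MF, Treg and T4 arrays and the T8 array at 10.27. Of the myeloid populations only GN stood clear of it. For Socs3 the shared range held the DC arrays, the Treg array at 10.32 and the T4 array at 9.83. Cish differed by 0.17 ± 0.12 (adjusted p = 0.262) and Socs2 by -0.07 ± 0.10 and -0.16 ± 0.08 (adjusted p = 0.603 and 0.11), and each of these genes was high in myeloid and in lymphoid populations. The median absolute difference was 0.16 for the 12 probe sets and 0.18 for all.

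**Figure D2:**
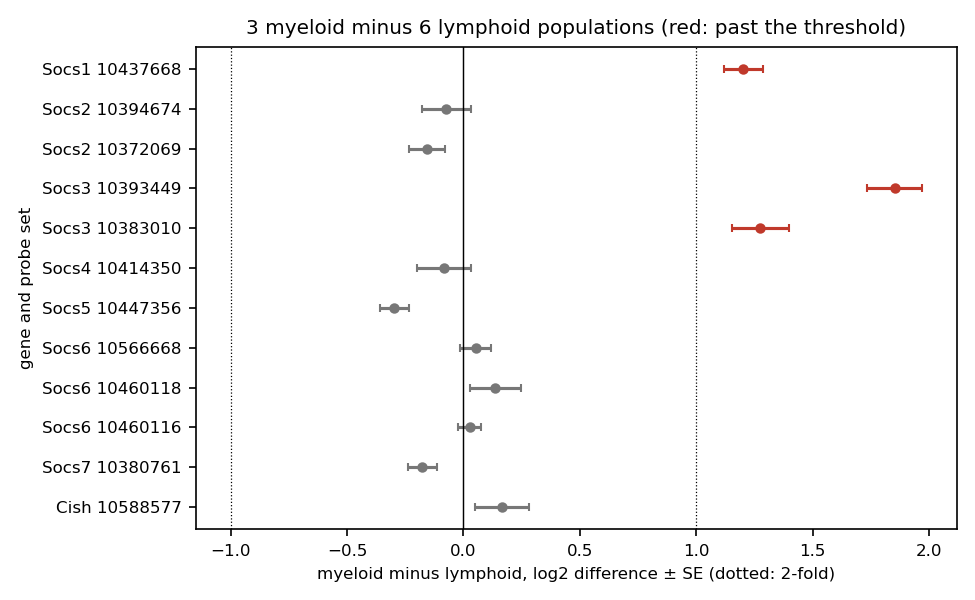
Log2 difference of the mean of DC, GN and MF minus the mean of the 6 lymphoid populations (horizontal axis) for each SOCS family probe set (vertical axis), with bars for the SE and dotted lines at 2-fold. Socs1 at 1.20 and Socs3 at 1.85 and 1.27 lie past the line, and the other 9 probe sets lie between -0.30 and 0.17.

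Socs2, a STAT5-induced member known for restraining growth hormone signalling, followed another order, highest in NKT, Treg and DC and lowest in T8. Probe set 10394674 read 10.41 and 10.30 in NKT, 10.31 and 10.33 in Treg, and 9.90 and 9.65 in DC. It read 8.84 and 8.33 in NK, 7.94 and 8.19 in T4, 7.73 and 7.96 in Tgd, 8.22 and 7.44 in MF, 7.90 and 7.62 in GN, and 5.92 and 6.06 in T8. The 6 arrays of NKT, Treg and DC lay above all others and the 2 T8 arrays well below all others. The range was 4.36 both over all populations (adjusted p = 5.45e-11) and among lymphocytes (adjusted p = 1.97e-10), because the highest and the lowest population were both lymphoid.

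The other Socs2 probe set, 10372069, gave a smaller range in nearly the same order. It read 8.78 and 8.75 in NKT, 8.74 and 8.83 in Treg, 8.55 and 8.26 in DC, and 8.11 and 7.87 in NK. It read 7.52 and 7.48 in T4, 7.48 and 7.47 in Tgd, 7.63 and 7.20 in MF, 7.57 and 7.16 in GN, and 6.85 and 6.70 in T8. Its range was 2.01, or 4.04-fold (adjusted p = 1.67e-08), and only Treg and NKT changed places in the order. Across the 9 population means the 2 probe sets had a Pearson r of 0.99. Between neighbours, DC exceeded NK by 1.18 ± 0.21 (adjusted p = 0.00023) and GN exceeded T8 by 1.77 ± 0.21 (adjusted p = 1.22e-06) on 10394674. On 10372069 GN exceeded T8 by 0.59 ± 0.16 (adjusted p = 0.00407) and NK exceeded T4 by 0.49 ± 0.16 (adjusted p = 0.0352), and DC and NK missed the threshold (0.41 ± 0.16, adjusted p = 0.0541). On neither probe set did NKT and Treg differ beyond it.

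Cish, which encodes the STAT5-induced inhibitor CIS, was highest in Treg and GN and lowest in T8, DC and NK. Probe set 10588577 read 10.38 and 10.77 in Treg, 10.41 and 10.08 in GN, 9.31 and 9.40 in NKT, and 9.10 and 9.38 in MF. It read 8.89 and 9.03 in T4, 8.98 and 8.85 in Tgd, 8.45 and 7.68 in NK, 7.50 and 8.21 in DC, and 7.74 and 7.89 in T8. The arrays of Treg and GN overlapped each other and lay above all others, and those of NK, DC and T8 overlapped below all others. The range of 2.76, or 6.80-fold, was the same over all populations (adjusted p = 3.36e-08) and among lymphocytes (adjusted p = 6.69e-07). Neighbours differed between GN and NKT (0.89 ± 0.23, adjusted p = 0.0042) and between Tgd and NK (0.85 ± 0.23, adjusted p = 0.0186) and not beyond the threshold elsewhere. The DC and NK arrays had the widest spread, with gaps of 0.71 and 0.78 between the 2 arrays of the population.

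The remaining members varied less. Socs5 had its lowest mean in GN, 7.95 ± 0.06, and its highest in NKT, 9.02 ± 0.11, a range of 1.07 (adjusted p = 4.97e-05) in which T4 exceeded GN by 0.40 ± 0.12 (adjusted p = 0.0122). Its range fell just short of 2-fold without NKT replicate 2 (0.99) and reached 0.78 after quantile normalization. Socs6 was lowest in GN and highest in MF on both of its brighter probe sets, at 7.42 ± 0.16 and 8.62 ± 0.28 on 10566668 (range 1.21, adjusted p = 7.04e-05) and at 6.84 ± 0.26 and 8.47 ± 0.25 on 10460118 (range 1.62, adjusted p = 0.000133). After quantile normalization the range on 10566668 was 0.98. The third Socs6 probe set, 10460116, had a mean of 3.35, dimmer than all but 0.803% of probe sets with 1 symbol, and a range of 0.17 (adjusted p = 0.754).

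Socs7 was highest in NK, at 8.94 and 8.93 on the 2 arrays, and all other arrays lay between 8.10 and 8.58. Its range of 0.77 had an adjusted p of 0.00159 but was under 2-fold, and NK exceeded NKT, its neighbour, by 0.47 ± 0.12 (adjusted p = 0.0138). Socs4 had means between 8.91 and 9.21, a range of 0.31 (adjusted p = 0.852). This was smaller than its gap of 0.85 between the 2 NK arrays, so that no order of populations could be read.

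Each population was then compared with the mean of the other 8. In GN, Socs1 was higher by 1.73 ± 0.13 (adjusted p = 1.71e-09), Socs3 by 2.59 ± 0.18 and 2.67 ± 0.18 (adjusted p = 9.62e-10 and 8.38e-10) and Cish by 1.39 ± 0.18 (adjusted p = 2.16e-06). These were 4 of the 12 probe sets, against 6.92% of all. In MF, Socs3 was higher on 10393449, by 1.48 ± 0.18 (adjusted p = 2.23e-06), against 7.35% of all probe sets, while 10383010 differed by 0.43. None of the 12 passed as lower in GN or MF, where 12.1% and 4.12% of all did. Socs6 on 10460118 came nearest, at -0.99 ± 0.17 in GN (adjusted p = 5.99e-05), and was past 2-fold under some alternatives, such as -1.17 without GN replicate 2. Socs2 on 10394674 differed by -0.76 in MF, where the arrays were 0.78 apart, and by -1.15 without MF replicate 2.

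In DC, Socs2 was higher on 10394674 by 1.43 ± 0.16 (adjusted p = 1.14e-06), against 5.17% of all probe sets, and Cish was lower by 1.29 ± 0.18 (log2 difference -1.29, adjusted p = 1.42e-05), against 2.3% of all. On 10372069 Socs2 differed by 0.65 ± 0.12 (adjusted p = 0.000306), which is under 2-fold. The DC array with the higher granulocyte, monocyte and macrophage marker sums, array 2, read 8.21 for Cish, 10.45 for Socs1, 10.11 for Socs3 (10393449) and 9.65 for Socs2 (10394674). Array 1 read 7.50, 10.24, 9.80 and 9.90 for the same genes. Array 2 was thus nearer to GN for these 4 genes, and also for Socs4 and Socs5. It was farther from GN for Socs6 and Socs7. Socs6 read 8.08 on array 1 and 8.10 on array 2 on 10566668, where GN averaged 7.42. On 10460118 it read 8.10 and 8.16, where GN averaged 6.84. Socs7 read 8.27 and 8.37, where GN averaged 8.16. The difference in Cish was -0.93 without DC replicate 1 and -1.64 without DC replicate 2. The part of other cells in these DC values was not tested.

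NK and NKT were both low in Socs1 and Socs3. In NK, Socs1 was lower (-1.36 ± 0.13, adjusted p = 2.14e-07), as were Socs3 on 10393449 (-1.24 ± 0.18, adjusted p = 3.85e-05) and Cish (-1.05 ± 0.18, adjusted p = 0.000168), against 2.58% of all probe sets. The Cish call rested on 1 array, with a difference of -0.67 (adjusted p = 0.0235) without NK replicate 3. Socs3 on 10383010 differed by -0.81 ± 0.18 in NK, and by -1.07 without NK replicate 3. In NKT, Socs1 was lower (-1.36 ± 0.13, adjusted p = 2.95e-07), as was Socs3 on both probe sets (-1.70 ± 0.18 and -1.05 ± 0.18, adjusted p = 1.54e-06 and 0.000356), against 2.24% of all. On 10383010 the NKT difference was -0.85 without NKT replicate 2 and -0.93 with log2(intensity + 32). Socs2 was higher in NKT on both probe sets, by 2.08 ± 0.16 and 1.05 ± 0.12 (adjusted p = 2.4e-08 and 2.92e-06), against 1.57% of all.

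Treg was high in Socs2 and Cish and T8 was low in both. In Treg, Socs2 was higher by 2.05 ± 0.16 and 1.08 ± 0.12 (adjusted p = 3.43e-08 and 2.33e-06) and Cish by 1.77 ± 0.18 (adjusted p = 7.61e-07), against 1.41% of all probe sets. In T8, Socs2 was lower (-2.83 ± 0.16 and -1.19 ± 0.12, adjusted p = 6.78e-10 and 6.08e-07), as was Cish (-1.34 ± 0.18, adjusted p = 1.46e-05), against 2.91% of all. None of the 12 passed in T4 or in Tgd, where 3.58% and 2.4% of all probe sets did. The 9 comparisons share their arrays.

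**Figure D3:**
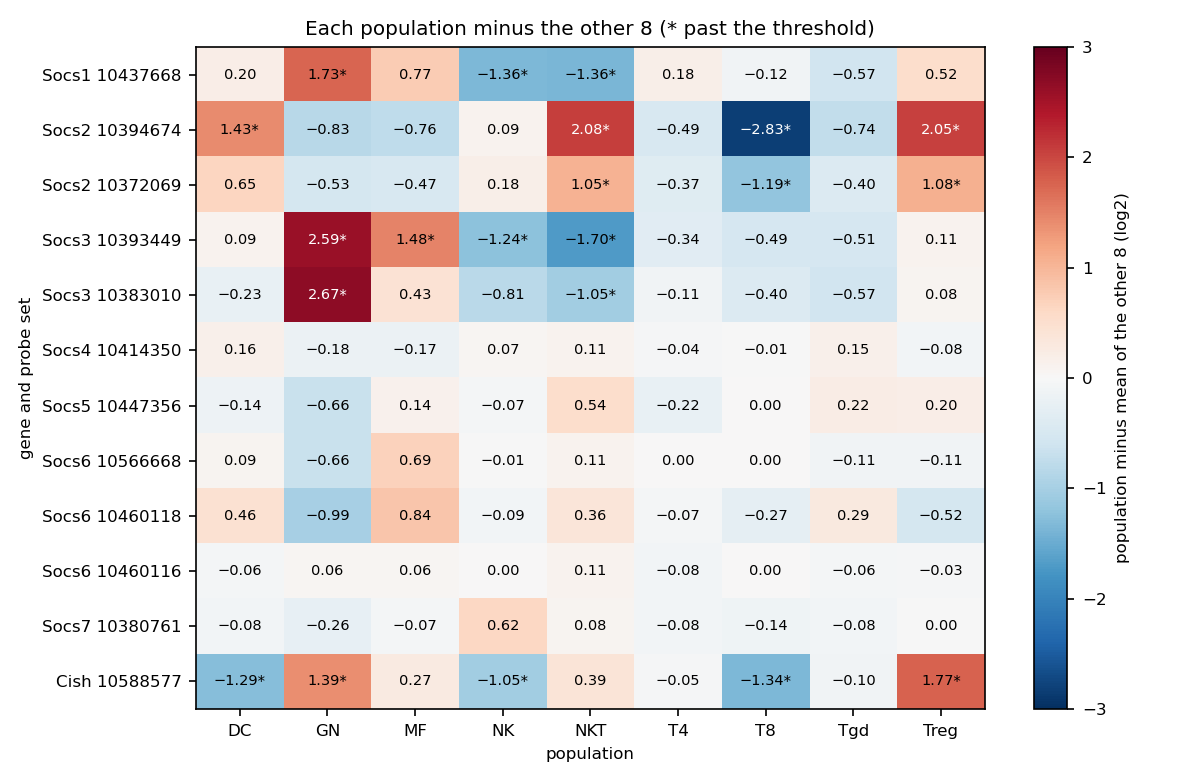
Log2 difference of each population (horizontal axis) from the mean of the other 8 for each SOCS family probe set (vertical axis), printed in every cell and shaded from blue (lower) to red (higher), with stars on the 21 values past the threshold. GN carries the 4 stars of Socs1, Socs3 and Cish, and Socs2 has its highest values in NKT and Treg (2.08 and 2.05) and its lowest in T8 (-2.83).

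Among CD4 T cells, Treg carried more Socs2 and Cish than T4. Socs2 on 10394674 read 10.31 and 10.33 in Treg, against 7.94 and 8.19 in T4, a difference of 2.25 ± 0.21 or 4.77-fold (adjusted p = 2.89e-06). On 10372069 the difference was 1.29 ± 0.16 (adjusted p = 6.05e-05). Cish read 10.38 and 10.77 in Treg, against 8.89 and 9.03 in T4, a difference of 1.61 ± 0.23 or 3.06-fold (adjusted p = 0.000369). These 3 of 12 probe sets passed as higher, where 0.499% of all did, and each passed under every alternative in which it was tested and with any 1 array left out. Foxp3, the transcription factor that defines regulatory T cells, averaged 12.01 in Treg and 9.97 in T4, and Il2ra (CD25) 12.66 and 11.00. In the other 7 populations Foxp3 averaged 6.75 to 7.71 and Il2ra 5.77 to 10.94. The part of CD25+ cells within T4 in these differences was not tested. Socs1 and Socs3 differed by 0.30 ± 0.17 and 0.41 ± 0.24 (adjusted p = 0.51 and 0.543) between Treg and T4.

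CD8 T cells had less Socs2 than CD4 T cells. Socs2 on 10394674 read 5.92 and 6.06 in T8, against 7.94 and 8.19 in T4, a difference of -2.08 ± 0.21 or 4.22-fold (adjusted p = 7.63e-06). On 10372069 the difference was -0.72 ± 0.16 (adjusted p = 0.0124), which is under 2-fold. Cish read 7.74 and 7.89 in T8, against 8.89 and 9.03 in T4, a difference of -1.15 ± 0.23 (adjusted p = 0.00766). These 2 of 12 passed as lower, against 0.509% of all probe sets. The adjusted p for Cish was 0.0762 without T4 replicate 3 and 0.0804 without T8 replicate 2, with differences of -1.08 in both cases.

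NKT and NK were both low in Socs1, but NKT had more Socs2 and Cish. Socs2 on 10394674 read 10.41 and 10.30 in NKT, against 8.84 and 8.33 in NK, a difference of 1.77 ± 0.21 or 3.41-fold (adjusted p = 9.38e-06), and 10372069 differed by 0.78 ± 0.16 (adjusted p = 0.00207), under 2-fold. Cish read 9.31 and 9.40 in NKT, against 8.45 and 7.68 in NK, a difference of 1.29 ± 0.23 (adjusted p = 0.000821), or 0.90 without NK replicate 3. These 2 of 12 passed as higher, against 1.46% of all probe sets. Socs1 differed by 0.00 ± 0.17 (adjusted p = 0.992) and Socs3 by -0.40 ± 0.24 and -0.21 ± 0.24 (adjusted p = 0.296 and 0.626).

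**Figure D4:**
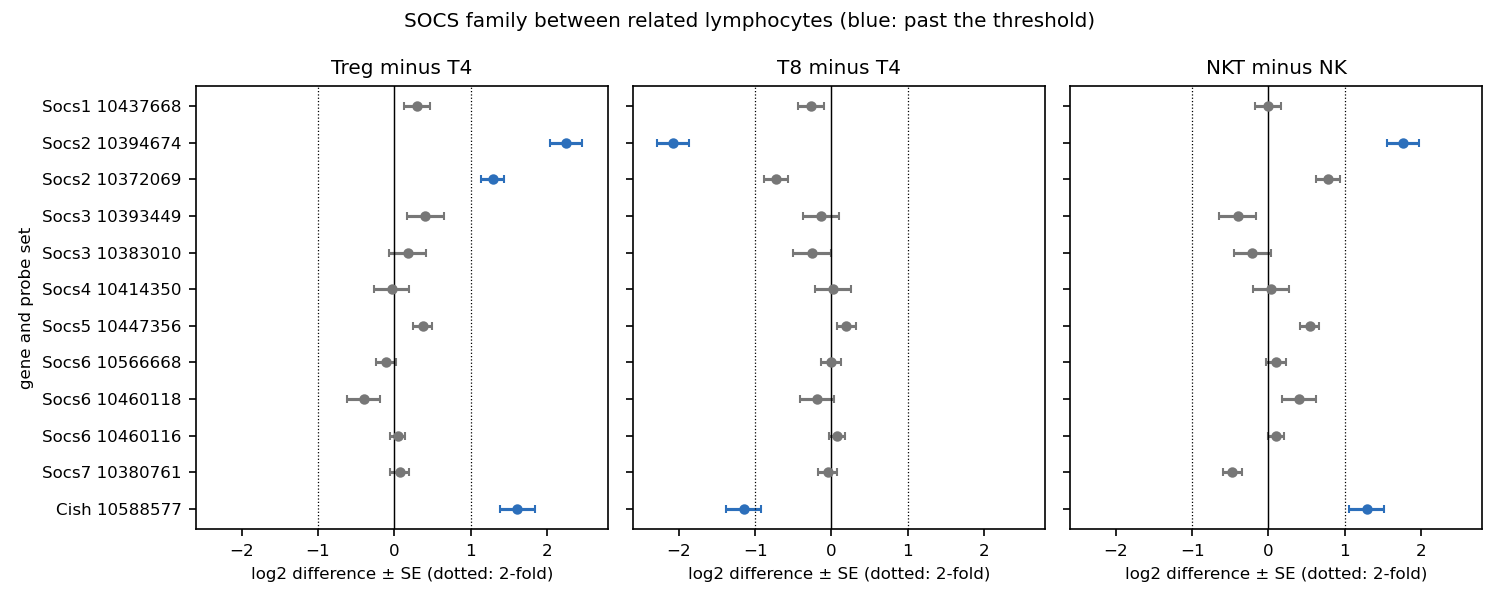
Log2 difference ± SE (horizontal axis) of each SOCS family probe set (vertical axis) in 3 comparisons of related lymphocytes, Treg minus T4, T8 minus T4 and NKT minus NK, with dotted lines at 2-fold and blue for those past the threshold. The blue points are those of Socs2 and Cish in all 3 panels, at 2.25, 1.29 and 1.61 for Treg, -2.08 and -1.15 for T8, and 1.77 and 1.29 for NKT.

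Between myeloid populations, GN had more Socs3 on 10383010 than MF (2.00, given above) and less Socs6 (-1.21 ± 0.13 and -1.62 ± 0.22, adjusted p = 4.9e-07 and 6.96e-06), where 21.2% of all probe sets passed in either direction. Cish passed narrowly as higher in GN than MF (1.00 ± 0.23, adjusted p = 0.00145) and was at 0.84 without GN replicate 1 and 0.86 without MF replicate 2. Where 17.1% of all probe sets passed in either direction, GN was higher than DC in Socs1 (1.37 ± 0.17, adjusted p = 2.54e-06), in Socs3 (2.22 ± 0.24 and 2.58 ± 0.24, adjusted p = 5.51e-07 and 1.13e-07) and in Cish (2.38 ± 0.23, adjusted p = 1.72e-07), which are 4 probe sets. GN was lower than DC in Socs2 (-2.01 ± 0.21 and -1.04 ± 0.16, adjusted p = 3.63e-07 and 2.58e-05) and in Socs6 on 10460118 (-1.29 ± 0.22, adjusted p = 0.000108). The second Socs2 value was -0.90 without DC replicate 1 and -0.83 without GN replicate 2. Against DC, MF was lower in Socs2 on 10394674 (-1.94 ± 0.21, adjusted p = 8.88e-07) and higher in Socs3 on 10393449 (1.23 ± 0.24, adjusted p = 0.000527) and in Cish (1.38 ± 0.23, adjusted p = 0.000142), where 10.7% passed. The second probe sets did not pass in MF against DC. Socs2 on 10372069 was at -0.99 ± 0.16 (adjusted p = 7.01e-05), just under 2-fold, and Socs3 on 10383010 at 0.59 ± 0.24 (adjusted p = 0.0793). Over all 36 pairs of populations, 9.99% of tests across all probe sets passed. Cish and Socs2 on 10394674 each passed in 23 pairs, Socs3 on 10393449 in 21, Socs1 in 18, Socs2 on 10372069 in 13, Socs3 on 10383010 in 11, Socs6 in 5, 1 and 0, Socs5 in 1, and Socs4 and Socs7 in 0.

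Correlations between members were taken over the 9 population means, which share arrays, and are given without a test. Socs1 and Socs3 (10393449) had a Pearson r of 0.95 and a Spearman rho of 1.00, and r was 0.91 over the 8 populations other than GN. With 10383010 r was 0.89, and 0.97 without GN. Socs2 had an r of -0.23 with Socs1 and -0.27 with Socs3 on 10394674 and 10393449. Socs2 and Cish, both STAT5-induced, had an r of 0.35, and 0.51 without GN: they were high together in Treg and low together in T8, while DC was high in Socs2 and low in Cish, and GN the reverse. The 2 brighter Socs6 probe sets had an r of 0.87, and 0.76 without GN.

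**Figure D5:**
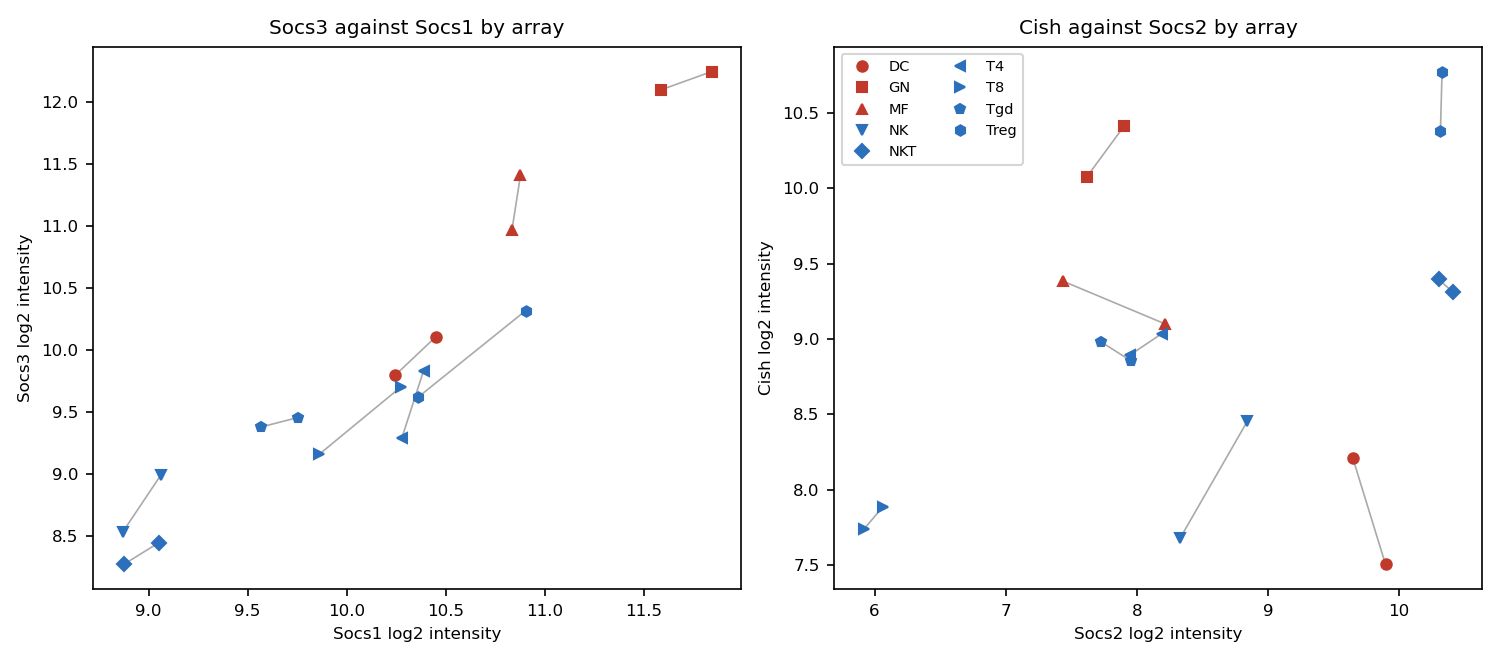
Log2 intensity of Socs3 (probe set 10393449, vertical axis) against Socs1 on the left and of Cish (vertical axis) against Socs2 (probe set 10394674) on the right, with a point for each of the 18 arrays and a line joining the 2 arrays of a population, myeloid in red and lymphoid in blue. Socs1 and Socs3 follow one line of populations (r = 0.95 over population means), and Cish and Socs2 do not (r = 0.35), with GN high in Cish alone and DC high in Socs2 alone.

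Genes outside the family with the most similar profile were found by Pearson's r over the 9 population means, among 7419 named genes that passed the test over 9 populations. For Socs1 they were Gpr146, a G protein-coupled receptor (r = 0.98), Ampd3, an AMP deaminase (0.98), and Irf1, an interferon-induced transcription factor (0.97). For Socs3 they were Ppp2r5c, a phosphatase subunit (0.98), Homer1, a scaffold protein (0.96), and Tpcn2, a lysosomal channel (0.96) on 10393449, and Rnf31, a subunit of the linear ubiquitin ligase (0.99), Cisd2 (0.98) and Fam222b (0.98) on 10383010. All 6 of these were highest in GN. The values for Socs2 were lower: St3gal2, a sialyltransferase (0.83), Nfkbia, the NF-kB inhibitor (0.82), and Pdcd1lg2, the checkpoint ligand PD-L2 (0.81) on 10394674, and Nfkbia (0.84), Pdcd1lg2 (0.82) and Zfp870 (0.79) on 10372069. For Cish they were Psen2, a gamma-secretase subunit (0.92), Arhgap31 (0.90) and Galm (0.85). For Socs5 they were Arntl, a circadian clock factor (0.93), Sptssa (0.91) and Wwp1, a ubiquitin ligase (0.91), all lowest in GN. Socs6 was most like Lman1, a cargo receptor of the secretory pathway (0.99), Coq3 (0.98) and Rpn2 (0.98) on 10566668 and Vamp7 (0.97), Slc35b1 (0.95) and Abi3 (0.94) on 10460118, all lowest in GN and highest in MF. Likeness over 9 points does not show shared control.

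The other genes of the pathway were read from lists, with 1 probe set a gene, beside the 39.5% of all probe sets that passed over 9 populations. Of 11 other inhibitors of JAK-STAT signalling, 7 passed, with a median range of 1.47. Usp18, which restrains type I interferon receptors, averaged 11.81 in DC and 8.83 in NK, and Ptpn6, the phosphatase SHP-1, 12.04 in GN and 10.16 in NK. Of 6 ubiquitin ligase partners of the SOCS box, 3 passed with a median range of 1.08, namely Cul5 (range 2.44), Cul2 (1.84) and Rnf7 (1.57), and all 3 were lowest in GN, the population highest in Socs1 and Socs3. Cul5, the cullin that SOCS proteins recruit, averaged 6.85 in GN and 9.28 in NKT. Of all probe sets, 12.1% passed as lower in GN than in the other 8 populations, which is a different measure. The share of passing probe sets with their lowest mean in GN was not counted, so no excess in GN can be read from these 3 genes. Elob, Eloc and Rbx1 did not pass and were not lowest in GN, where Rbx1 had its highest mean (10.20). Of 6 other SOCS box proteins, 2 passed, Wsb1 (1.48) and Spsb1 (1.45), with a list median of 0.89.

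Among receptors and kinases restrained by SOCS1, 6 of 7 measured genes passed, with a median range of 1.60. Ifngr2, the signalling chain of the IFNg receptor, averaged 11.45 in GN and 7.16 in NK, the widest range of the list at 4.28, and Tyk2, a JAK kinase, 10.91 in NK and 8.41 in GN. Of 6 receptor chains restrained by SOCS3, 4 passed, with a median range of 4.06. Csf3r, the G-CSF receptor, averaged 13.49 in GN and 6.35 in NKT, and Lifr 10.39 in MF and 5.52 in T4. Csf3r and Socs3 thus shared their highest population, GN. Both had their lowest mean in NKT, but Csf3r did not pass among the lymphoid populations, whose means were 6.35 to 6.73. The other receptor chains that passed had other orders than Socs3. Il6st was lowest in GN (7.05), and Il6ra was highest in T4 (11.28) and lowest in NK (7.54). Csf3r is also one of the granulocyte markers.

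Of 7 measured receptor genes of STAT5 cytokines, 6 passed (Il2rg was not analysed here), with a median range of 5.93. Il7r averaged 12.78 in NKT and 5.61 in MF, and Il2rb 12.96 in NK and 5.83 in MF. All 6 STAT5 target genes passed, with a median range of 2.63, led by Myc (11.45 in T8 and 7.09 in GN) and Bcl2 (11.56 in Treg and 7.43 in GN). All 10 measured IFNg target genes passed, with a median range of 3.38, led by Cxcl9 (13.20 in DC and 7.25 in Treg) and Ciita (11.87 in DC and 6.73 in T8). Between myeloid and lymphoid populations, 6 of these 10 passed as higher in myeloid cells and none as lower, beside 6.18% and 4.24% of all probe sets. The median myeloid minus lymphoid difference of this list was 1.30, as against -0.62 for the STAT5 targets, of which 1 passed as higher and 2 as lower.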

How the data were processed

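Transcripts were measured on 18 single-colour arrays, 2 for each of 9 populations grouped by the titles. The deposited values were linear intensity values for 24922 probe sets, made with Affymetrix Power Tools and RMA per the submitters' processing notes, versions and whether all arrays were normalized together being not given in the sources used here. Log2 was taken with no offset and no filter. Gene symbols came from GEO's platform annotation and were brought up to date through Entrez numbers in a RefSeq gene table (21347 of 21425 single symbols matched). Another 1399 probe sets had several symbols, none of them including a SOCS gene, and 2098 had none. Each probe set was tested separately.

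limma 3.58.1 in R 4.3.3 (lmFit and eBayes with a mean-variance trend) was fitted to all 18 arrays, each population having its own mean and no covariate being used, with 9 residual and 7.40 prior degrees of freedom. Moderated F tests were run over the 9 and the 6 lymphoid populations, and two-sided contrasts for myeloid minus lymphoid, each population minus the other 8, and the 36 pairs. P-values were Benjamini-Hochberg adjusted within each test over all 21425 probe sets. The fit was also run on simulated data with independent noise and changes in GN alone. That simulation did not cover deviations shared between arrays, and no result here rests on it. Alternatives were quantile and median scaling, log2(intensity + 32), a filter on dim probe sets, 1 probe set a gene, all probe sets, other spread estimates, the replicate number as a block, and each array left out.

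Every member was named. For each member probe set that passed over 9 populations the 3 most similar genes were named, without clone, small RNA or predicted gene names. Of each pathway list the 2 passing genes of widest range were named, with others only where a result turned on them. Of these others, Rnf7, Il2ra, Foxp3, Elob, Eloc, Rbx1, Il6st and Il6ra were added after their values were seen. The members and lists were chosen with earlier results of these data known. The labels do not say what a shared replicate number marks, and the numbers were not used as pairs. Other times, untreated animals and other populations were not analysed here.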

Additional observations from a re-analysis of the deposited data

How the results depend on the processing

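Across the alternatives no member difference that passed changed its direction. The number of member probe sets that passed over 9 populations, over 6 lymphoid populations and as myeloid minus lymphoid was 9, 6 and 3 as reported, 7, 6 and 3 after quantile normalization, 8, 5 and 3 with log2(intensity + 32), and 9, 5 and 3 with a robust spread. With 1 probe set a gene 6, 4 and 2 passed, because 4 of the 12 probe sets are left out. Leaving out 1 array gave 8 to 9, 5 to 7 and 3. The deviations of same-numbered arrays correlated at -0.185 to 0.47 between populations, over 0.1 in 9 of 18 pairs of populations, and the labels do not say what a number marks. With the replicate number as a block the counts were 9, 5 and 3, and calls were 19 against 21 over the 9 comparisons with the other 8 and 110 against 116 over the 36 pairs. Results that fell short of 2-fold under the block included Socs3 on 10393449 as MF minus DC (0.96) and NKT minus T4 (-0.93), Socs3 on 10383010 over the lymphoid populations (0.88) and as NKT minus the other 8 (-0.95), and Socs2 on 10372069 as NKT minus the other 8 (0.91). Socs3 on 10393449 as GN minus MF was past it (1.26). With log2(intensity + 32) the calls against the other 8 and over the pairs were 17 and 108. Outside the pairs, member results that changed their call were 18 lost and 12 gained, beside 3798 that kept it. Others not named in the report included Socs2 on 10372069 in NKT (0.93) and Treg (0.96) and Cish in NK (-0.98), all minus the other 8 with log2(intensity + 32), where each fell short of 2-fold, and the cause was not tested. By Spearman's rho, 5 of the 27 most similar genes were the same.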

Other observations

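Within a population, the array that was higher for Socs1 was mostly also the higher one for Socs3. This held in 9 of 9 populations on probe set 10393449 and in 8 of 9 on 10383010, with a Pearson r of 0.86 and 0.58 between the gaps of the 2 arrays over the 9 populations. Among the other 21424 probe sets, 58 (0.271%) matched the direction of Socs1 in 9 of 9 populations. Cish matched it in 8 populations, Socs2 in 4 and 3, and Socs4 in 1. The share of all probe sets that matched in 8 of 9 was not counted. Irf1, outside the family, matched in 9 of 9 on probe set 10385870 (r = 0.89) and in 6 of 9 on 10376060 (r = 0.36). Gaps were up to 0.54 for Socs1 and 0.70 for Socs3, both in Treg. What differed between the arrays of a population was not tested.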
